A study of Mus musculus with 9 samples.

Results

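The nuclear-encoded subunits of the mitochondrial respiratory chain were followed across 9 striatum libraries of mice. The members are the protein-coding genes whose GRCm38 symbol starts with Ndufa, Ndufb, Ndufc, Ndufs, Ndufv, Sdha, Sdhb, Sdhc, Sdhd, Uqcr, Cox4, Cox5, Cox6, Cox7, Cox8 or Atp5, without the Ndufaf assembly factors. The rule found 90 gene IDs of the 54532 in the count tables, under 89 symbols, since Atp5o has 2 IDs. By complex, 36 of them belong to complex I, 4 to complex II, 8 to complex III, 20 to complex IV and 17 to complex V, counting tissue isoforms and paralogs. The other 5 carry a matching symbol but are not subunits, namely the complex II assembly factors Sdhaf1, Sdhaf2, Sdhaf3 and Sdhaf4, and Atp5s, a coupling factor. The rule reads only symbols and gene type, but it was set with earlier results of these data known.

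The libraries came from 3 groups of 3, all on a C57BL/6J background. The cGAS KO mice lack cGAS (gene Cgas), an enzyme that binds cytosolic DNA and then synthesizes cGAMP, a messenger. The STING KO mice lack STING (gene Tmem173), the receptor for cGAMP on the endoplasmic reticulum. Both knockouts were made with CRISPR-Cas9, and the WT group is their comparison. The series design describes the tissue as taken after ischemic stroke, which all 3 groups then share, while the labels leave out age, sex and the time after the stroke. The labels do not say whether replicates are separate animals, and a p-value therefore reflects only how far these libraries scatter. Polyadenylated RNA was sequenced, and the values are CPM, counts scaled to library size by the trimmed mean of M-values (TMM). They are given in the order of replicates 1, 2 and 3.

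The respiratory chain passes electrons through complexes I, II, III and IV in the inner mitochondrial membrane and builds a proton gradient, which complex V, the ATP synthase, spends to make ATP. A handful of core subunits come from mitochondrial DNA, and all the others come from nuclear genes that are transcribed in the nucleus, translated in the cytosol and imported. Neurons depend on this pathway for most of their ATP, and it stops when blood flow is cut off. Mitochondrial DNA released into the cytosol is one of the ligands of cGAS.

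Of the 90 members, 86 passed the filter on low counts and were tested. The 4 that did not pass were Cox7b2, Cox8b, Cox8c and the second Atp5o ID, and the last 2 of these had 0 counts in all 9 libraries. Library totals ranged from 14129021 to 21286775 counts. A count of 0 allows up to 3 counts, or 0.135 to 0.226 CPM, for counting error only. In each group 1 library stood apart, the second of cGAS KO, the second of STING KO and the third of WT, by low complexity, with 2280 to 4723 genes at 1 to 9 counts, against 7096 to 7927 in the other 6. Members called, medians of the whole set and the members' share of counts are given with and without these 3. Levels per length, isoform and subunit c shares and promoter groups use all 9 libraries. Markers of medium spiny neurons, the main striatal cell type, were all 10 detected and summed to 8352 to 10218 CPM in 8 libraries and to 4964 CPM in WT replicate 3. Cgas had 1.10, 0.377 and 0.262 CPM in cGAS KO, against 1.40, 2.63 and 3.18 CPM in WT, with no overlap. Tmem173 had 2.18, 1.05 and 1.84 CPM in STING KO, against 4.06, 3.01 and 1.34 CPM in WT, and the groups overlapped. Gene totals do not show whether the remaining transcripts carry the edit.

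Levels were compared between genes as TMM CPM per kb of transcript, averaged over the 9 libraries. The catalytic core of the ATP synthase led: Atp5b, the beta subunit that makes ATP, had 377 CPM per kb, and Atp5a1, the alpha subunit beside it, had 239.8 CPM per kb. Atp5k, subunit e, which sits where 2 synthases meet, was the lowest of complex V at 31.9 CPM per kb. In complex IV, cytochrome c oxidase, the regulatory subunit gene Cox4i1 had 267 CPM per kb and Cox6a1 had 243 CPM per kb. These 4 genes are the top of the whole set.

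The smaller complexes and complex I lay lower on the same per-length scale. In complex III, which hands electrons to cytochrome c, Uqcrh (the hinge protein) had 98.1 and Uqcrq 95.7 CPM per kb, while Uqcrb had 34.7 CPM per kb. In complex II, the link to the citric acid cycle, the flavoprotein gene Sdha had 83.7 CPM per kb and the iron-sulfur subunit gene Sdhb 60.9 CPM per kb, against 20.3 CPM per kb for Sdhc, which anchors the complex in the membrane. The 36 complex I genes topped out at 76.3 CPM per kb for Ndufb10, an accessory subunit of the membrane arm. Ndufv3, an accessory subunit of the NADH-oxidizing module, was lowest at 15.9 CPM per kb. In complex IV the rare tissue isoforms extend far lower, to 0.326 CPM per kb for Cox7b2.

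**Figure D1:**
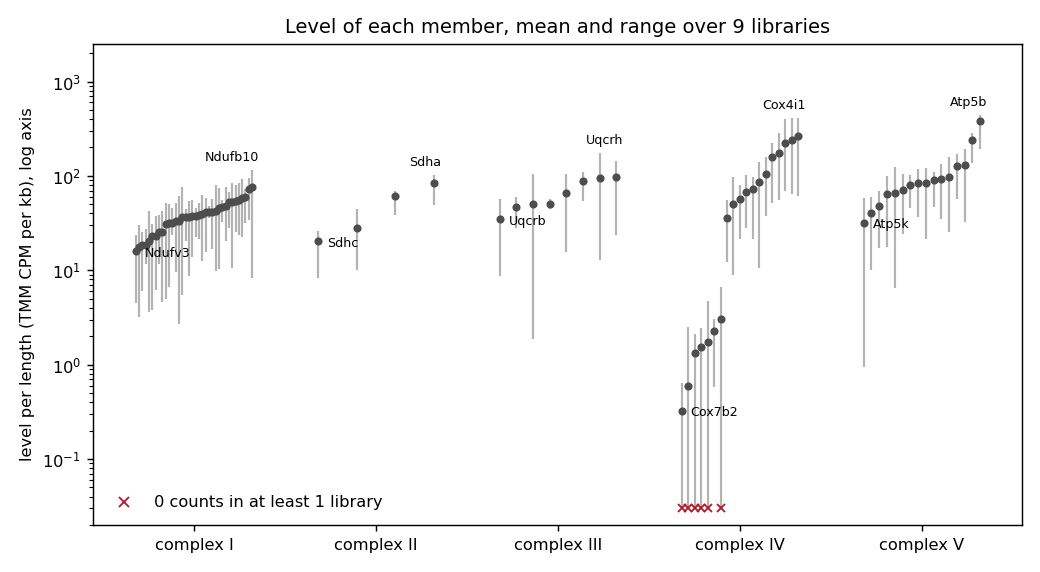
Level per length (TMM CPM per kb, log axis) of each member with any count, grouped by complex and ordered by level; points are means over 9 libraries, lines run from the lowest to the highest library, and crosses mark members with 0 counts in at least 1 library. Atp5b is highest at 377 CPM per kb and Cox7b2 lowest at 0.326 CPM per kb, and the 5 genes that are not subunits are left out.

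Many promoters of these genes carry sites for a small set of factors, among them NRF1 (nuclear respiratory factor 1, encoded by Nrf1), the ETS-family factor GABP, YY1 and the estrogen-related receptors. RefSeq promoter windows (GRCm38.p6, 250 bases before to 50 bases after the start) were matched for 73 of the 89 symbols, 2 of them through a synonym, and searched on both strands. The NRF1 letters, GCGCA and GCGC with any 1 base between them, were present in 19 of the 73 members (26.0%), against 1254 of 17492 protein-coding genes (7.17%). The ETS letters CCGGAAG were present in 26.0% of the members and 12.9% of protein-coding genes. The YY1 letters AAGATGGCG were present in 9.59% and 2.14%, and the receptor half-site TGACCTT in 11.0% and 4.73%. The Sp-type letters GGGCGG were present in 45.2% of the members and 49.2% of protein-coding genes, and TATAAA in 11.0% and 14.8%. No NRF1 match in a member shared a base with a match of the other 5 motifs. These are matches of letters in a window, not measured binding sites.

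The sequences below show the NRF1 letters in 1 member each of complexes I, II, IV and V, the highest per length among those with the letters upstream of the start in both RefSeq and GENCODE; complex III had none there. Each run is 5′ to 3′ on the gene's strand, ends at the base before the GENCODE gene start, which lies upstream of the RefSeq start in all 4, and has the NRF1 letters in capitals. A further match in Sdha, 10 bases before the RefSeq start, falls after the printed run. All 4 lie on the minus strand of GRCm38.p6: Ndufs5 at chr4:123718203-123718436, Sdha at chr13:74350281-74350490, Cox6a1 at chr5:115348982-115349208 and Atp5h at chr11:115419963-115420169.
Ndufs5: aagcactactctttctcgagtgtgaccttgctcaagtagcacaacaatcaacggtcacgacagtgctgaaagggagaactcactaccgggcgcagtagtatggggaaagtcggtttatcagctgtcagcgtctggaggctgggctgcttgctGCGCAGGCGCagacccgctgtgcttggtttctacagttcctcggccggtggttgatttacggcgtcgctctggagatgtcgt
Sdha: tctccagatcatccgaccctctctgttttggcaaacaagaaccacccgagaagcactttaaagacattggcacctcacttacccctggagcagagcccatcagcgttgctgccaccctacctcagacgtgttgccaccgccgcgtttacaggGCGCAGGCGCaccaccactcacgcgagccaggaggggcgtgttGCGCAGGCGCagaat
Cox6a1: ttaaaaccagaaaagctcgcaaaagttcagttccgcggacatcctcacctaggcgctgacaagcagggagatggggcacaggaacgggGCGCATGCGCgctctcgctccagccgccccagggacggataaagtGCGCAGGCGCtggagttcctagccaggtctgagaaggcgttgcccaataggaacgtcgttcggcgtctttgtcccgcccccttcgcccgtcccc
Atp5h: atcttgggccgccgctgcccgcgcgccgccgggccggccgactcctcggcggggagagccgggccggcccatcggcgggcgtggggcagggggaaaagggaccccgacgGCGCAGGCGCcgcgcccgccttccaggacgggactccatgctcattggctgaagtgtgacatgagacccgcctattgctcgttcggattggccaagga
The 19 tested members with the letters had medians of 0.13 (cGAS KO against WT), 0.17 (STING KO against WT) and 0.06 (STING KO against cGAS KO) on the log2 scale. The 52 without had 0.10, 0.13 and 0.05 in the same order.

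The members took a varying share of each library, and the variation was between replicates more than between genotypes. They held 0.744%, 0.385% and 0.498% of the counts in cGAS KO, 0.733%, 0.319% and 0.653% in STING KO, and 0.704%, 0.606% and 0.232% in WT. The 95% Wilson interval of a share was at most 0.00847 percentage points wide. Each group had its lowest share in its library of low complexity, and cGAS KO replicate 3 was the next lowest of all. The means were 0.542% ± 0.184 in cGAS KO, 0.568% ± 0.219 in STING KO and 0.514% ± 0.249 in WT (SD, n = 3 each), so the groups overlapped widely. Without the 3 libraries of low complexity the means were 0.621% in cGAS KO, 0.693% in STING KO and 0.655% in WT.

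Every complex showed this order of libraries. Complex I summed to 1797, 1029 and 1329.9 CPM in cGAS KO, 1793, 821 and 1564 in STING KO and 1684, 1490.3 and 605 CPM in WT. Complex II, the smallest, summed to 503, 338 and 445 CPM in cGAS KO, 495, 269 and 477 in STING KO and 479, 453 and 247 CPM in WT. The sums of complex III were 617, 357 and 428 CPM in cGAS KO, 602, 295 and 553 in STING KO and 574, 524 and 246 CPM in WT. In all 3 complexes the second cGAS KO and STING KO libraries and the third WT library were the lowest of their groups. Complex IV differed most between libraries, with 1527, 527 and 831 CPM in cGAS KO, 1483, 432 and 1203 in STING KO and 1359, 1159.6 and 277 CPM in WT. Complex V, the most abundant, summed to 2642, 1799 and 2250.2 CPM in cGAS KO, 2658, 1352 and 2394 in STING KO and 2604, 2340.3 and 987 CPM in WT. In bulk tissue, fewer cells of a type and less RNA per cell cannot be told apart.

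**Figure D2:**
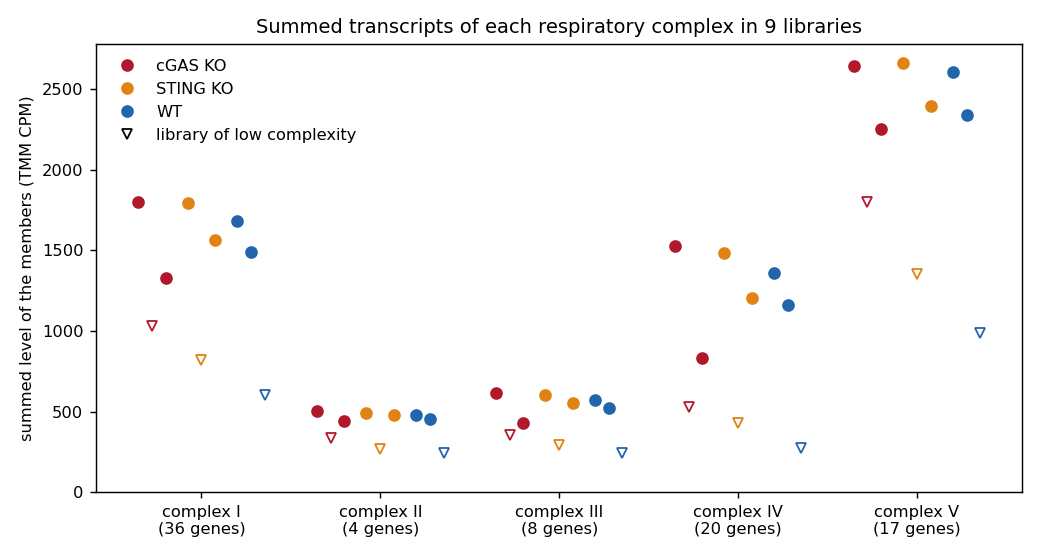
Summed level (TMM CPM) of the members of each complex in the 9 libraries, with cGAS KO left of STING KO and WT in each complex; each point is 1 library, and open triangles are the libraries of low complexity. In complex IV the triangles lie at 527 CPM in cGAS KO, 432 in STING KO and 277 CPM in WT, below the other points of their groups.

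The loss of cGAS was compared with WT first, and 0 of 86 members passed an adjusted p of 0.05 in edgeR's quasi-likelihood test, with 0 of 17821 genes passing in all (0%). At an unadjusted p under 0.05 there were 0 members and 361 genes (2.03%). DESeq2 called 0 members and limma-voom 0 members. The median log2 fold change of the members was 0.11, with 60 of 86 positive, against -0.01 for all genes tested, of which 48.5% were positive. Single members ranged from -0.45 to 0.61. The groups of libraries did not overlap for 1 member, which was lower (4.0% of all genes were lower without overlap), and for 0 members that were higher (4.0% of all genes).

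Among complex I and II genes, those with the smallest p on the positive side in cGAS KO included the NADH-binding flavoprotein gene Ndufv1 (chr19:4007384-4012806, minus strand). It had 111, 74.6 and 91.4 CPM in cGAS KO, against 95.8, 83.9 and 46.9 CPM in WT, which gave 0.29 ± 0.28 on the log2 scale (SE, n = 3 each). Ndufb8, an accessory subunit of the membrane arm (chr19:44548572-44555440, minus strand), had 35.1, 16.8 and 26.5 CPM in cGAS KO, against 24.1, 21.0 and 6.58 CPM in WT, which gave 0.60 ± 0.55 on the log2 scale. Sdhb (chr4:140961203-140979193, plus strand) had 77.0, 74.6 and 68.7 CPM in cGAS KO, against 69.7, 72.2 and 43.4 CPM in WT, which gave 0.25 ± 0.20 on the log2 scale. For each of the 3 the WT range reached up into the cGAS KO range, and the third WT library was the lowest of the 6. Cox7a2l, named for its likeness to Cox7a2 (chr17:83501918-83517330, minus strand), had the smallest p of all members. It had 103, 81.4 and 106 CPM in cGAS KO, against 85.8, 82.5 and 22.9 CPM in WT, which gave 0.60 ± 0.45 on the log2 scale and an unadjusted edgeR p of 0.219. The second cGAS KO library lay just under the 2 higher WT libraries.

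On the negative side, Sdhaf3, which helps to insert iron-sulfur clusters into Sdhb (chr6:6956004-7042979, plus strand), was the member without overlap. It had 8.18, 7.85 and 7.99 CPM in cGAS KO, against 8.76, 9.88 and 10.7 CPM in WT, which gave -0.29 ± 0.23 on the log2 scale. Sdhaf4, which binds Sdha before the complex forms, had 7.83, 3.47 and 4.85 CPM in cGAS KO, against 8.76, 8.43 and 3.33 CPM in WT, which gave -0.35 ± 0.43 on the log2 scale. Ndufab1, the mitochondrial acyl carrier protein (chr7:122085403-122101886, minus strand), had 31.8, 18.0 and 21.8 CPM in cGAS KO, against 39.1, 35.9 and 16.4 CPM in WT, which gave -0.35 ± 0.34 on the log2 scale. Uqcrc2, a core protein of complex III, was among the steadiest members and still belongs here by its small p. It had 96.8, 86.5 and 85.7 CPM in cGAS KO, against 104, 108 and 85.5 CPM in WT, which gave -0.15 ± 0.15 on the log2 scale. Of these 4, Sdhaf4, Ndufab1 and Uqcrc2 overlapped between the groups.

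The sign of the whole set turned on single libraries. For cGAS KO against WT the members' median was -0.27 without WT replicate 3, with 8 of 86 members positive, and -0.19 without cGAS KO replicate 1. It was 0.43 without WT replicate 1, 0.24 without WT replicate 2 and 0.31 without cGAS KO replicate 2. Without all 3 libraries of low complexity it was -0.05, with 37 of 86 positive (49.6% of all genes) and 0 members called by edgeR. Other protein-coding genes with transcripts under 1000 nt had a median of 0.03 with 9 libraries and -0.06 with these 6. In that fit of 6 libraries, 3 members had an unadjusted edgeR p under 0.05, against 4.20% of all genes. They were Cox7a2l with a log2 fold change of 0.31 ± 0.12, Ndufab1 with -0.48 ± 0.19 and Ndufb8 with 0.45 ± 0.18, and the smallest adjusted p was 0.971. The precision also differed: the median half-width of a member's 95% interval was 1.22 with 9 libraries and 0.50 with 6, on the log2 scale. With 9 libraries, 48 of 86 intervals in this comparison reached past both a 2-fold decrease and a 2-fold increase, and 21 lay wholly inside these bounds. With 6 libraries, 69 lay inside.

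The loss of STING compared with WT also left 0 of 86 members past an adjusted p of 0.05 in edgeR, with 0 of 17821 genes in all (0%). At an unadjusted p under 0.05 there were 0 members and 291 genes (1.63%), and DESeq2 and limma-voom called 0 members. The median log2 fold change was 0.13, with 65 of 86 positive, against -0.0044 for all genes tested, of which 49.4% were positive. Single members ranged from -0.51 for Ndufa4l2 to 0.92 for Cox7a1. In 1 member the groups did not overlap and STING KO was higher (3.40% of all genes), and in 0 members it was lower (3.67% of all genes).

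That member was Cox4i2, the isoform of Cox4i1 that is known from lung and from cells short of oxygen (chr2:152754173-152765037, plus strand). It had 2.11, 2.02 and 2.24 CPM in STING KO, against 1.40, 1.66 and 0.424 CPM in WT, which gave 0.85 ± 0.53 on the log2 scale and an unadjusted edgeR p of 0.139. The 3 STING KO libraries lay close together, and the spread was in WT. Ndufs7, which carries the last iron-sulfur cluster before ubiquinone (chr10:80249121-80256794, plus strand), had 71.1, 31.2 and 60.5 CPM in STING KO, against 47.4, 42.0 and 17.1 CPM in WT, which gave 0.61 ± 0.43 on the log2 scale. Ndufv1 had 104, 74.0 and 99.2 CPM in STING KO, a log2 fold change of 0.29 ± 0.28 over the WT values above. Sdhb had 79.0, 68.9 and 72.2 CPM in STING KO, a log2 fold change of 0.25 ± 0.20. For Ndufs7, Ndufv1 and Sdhb at least 1 STING KO library lay within the WT range.

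The lower side in STING KO held Ndufs1, the largest iron-sulfur subunit of complex I (chr1:63143596-63176833, minus strand), and assembly genes. Ndufs1 had 106, 95.1 and 104 CPM in STING KO, against 124, 125 and 92.3 CPM in WT, which gave -0.16 ± 0.17 on the log2 scale. Ndufab1 had 28.2, 21.0 and 26.3 CPM in STING KO, a log2 fold change of -0.28 ± 0.34 against the WT values above. Sdhaf2, which helps to attach the flavin to Sdha (chr19:10500534-10526142, minus strand), had 29.6, 12.3 and 25.04 CPM in STING KO, against 31.7, 34.7 and 16.9 CPM in WT, which gave -0.32 ± 0.36 on the log2 scale. Sdhaf3 had 7.27, 10.1 and 7.55 CPM in STING KO, a log2 fold change of -0.23 ± 0.23. All 4 overlapped with WT.

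Here too the sign of the median depended on 1 library. It was -0.22 without WT replicate 3, with 13 of 86 members positive, -0.12 without STING KO replicate 1 and 0.00 without STING KO replicate 3. It was 0.43 without STING KO replicate 2, 0.45 without WT replicate 1 and 0.26 without WT replicate 2. Without the 3 libraries of low complexity the median was 0.08, with 51 of 86 positive (50.2% of all genes) and 0 members called, while 4 of 17657 genes passed (0.0227%). For other protein-coding genes with transcripts under 1000 nt the median was 0.12 with 9 libraries and 0.07 in this fit of 6. An unadjusted edgeR p under 0.05 was reached by 2 members, Ndufb8 with a log2 fold change of 0.49 ± 0.18 and Ndufab1 with -0.46 ± 0.19, against 6.90% of all genes. The smallest adjusted p of a member was 0.697.

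Both comparisons share the WT libraries, so their likeness is not independent. Ndufb8 had 16.8 to 35.1 CPM in cGAS KO, 9.83 to 33.6 CPM in STING KO and 6.58 to 24.1 CPM in WT. Ndufab1 had 18.0 to 31.8 CPM in cGAS KO, 21.0 to 28.2 CPM in STING KO and 16.4 to 39.1 CPM in WT. The ranges of all 3 groups overlapped for both genes.

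Set directly against cGAS KO, the STING KO group had 0 of 86 members past an adjusted p of 0.05 in edgeR, with 0 of 17821 genes in all (0%). At an unadjusted p under 0.05 there were 0 members and 258 genes (1.45%), and DESeq2 and limma-voom called 0 members. The median log2 fold change was 0.05, with 58 of 86 positive, against 0.01 for all genes tested, of which 51.1% were positive. No member separated the groups: 0 were higher without overlap (3.63% of all genes) and 0 lower (3.72% of all genes). Sdhaf4 came closest by its p, with 10.1, 6.62 and 8.39 CPM in STING KO, against 7.83, 3.47 and 4.85 CPM in cGAS KO, which gave 0.63 ± 0.43 on the log2 scale and an unadjusted edgeR p of 0.173. Ndufb2, an accessory subunit of the membrane arm, had 15.5, 20.7 and 12.2 CPM in STING KO, against 14.3, 14.7 and 10.9 CPM in cGAS KO, which gave 0.28 ± 0.25 on the log2 scale. The 2 groups interleaved for both genes. Ndufs7 and Uqcrc2 followed on the positive side, with log2 fold changes of 0.35 ± 0.43 and 0.12 ± 0.15.

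On the lower side of this comparison was Cox7a2l, with 92.5, 42.7 and 86.5 CPM in STING KO, against 103, 81.4 and 106 CPM in cGAS KO, which gave -0.39 ± 0.45 on the log2 scale. Ndufa9, which closes the ubiquinone pocket of complex I, had 56.1, 40.7 and 59.2 CPM in STING KO, against 61.1, 57.6 and 61.3 CPM in cGAS KO, which gave -0.21 ± 0.26 on the log2 scale. Sdhaf2 and Ndufa4l2 had log2 fold changes of -0.26 ± 0.36 and -0.72 ± 1.05. The lowest STING KO library for Cox7a2l, Ndufa9, Sdhaf2 and Ndufa4l2 was the second. The median of all members was 0.39 without cGAS KO replicate 1 and 0.38 without STING KO replicate 2. It was -0.15 without cGAS KO replicate 2, -0.01 without cGAS KO replicate 3, -0.22 without STING KO replicate 1 and -0.06 without STING KO replicate 3. Without the 3 libraries of low complexity it was 0.14, with 70 of 86 positive (50.8% of all genes) and 0 members called, while 3 of 17657 genes passed (0.0170%). Protein-coding genes other than members with transcripts under 1000 nt had a median of 0.07 with 9 libraries and 0.12 in this fit of 6. Only Ndufa7, an accessory subunit of the NADH module, then had an unadjusted edgeR p under 0.05, with a log2 fold change of 0.46 ± 0.20, against 3.70% of all genes. It had 40.2, 12.2 and 33.7 CPM in STING KO, against 31.1, 13.7 and 22.5 CPM in cGAS KO.

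**Figure D3:**
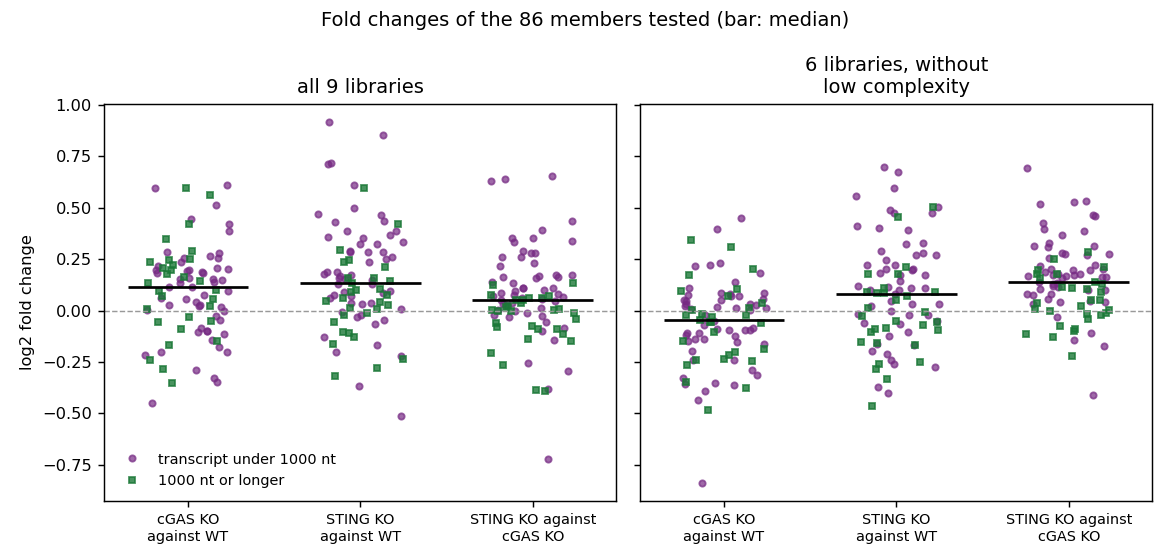
Log2 fold changes of the 86 tested members in the 3 comparisons, fitted on all 9 libraries (left) and without the 3 of low complexity (right); each point is 1 gene, purple for transcripts under 1000 nt and green for longer ones, and bars are medians. The medians are 0.11, 0.13 and 0.05 on the left and -0.05, 0.08 and 0.14 on the right.

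By complex, the medians of the log2 fold changes lay between -0.05 and 0.21 over the 3 comparisons. In cGAS KO against WT they were 0.12 for complex I, 0.15 for complex II, 0.09 for complex III, -0.05 for complex IV and 0.14 for complex V. Complex IV thus had the opposite sign to the whole set there, with 8 of 17 members positive. In STING KO against WT they were 0.15, 0.07, 0.09, 0.21 and 0.08 in the same order. In STING KO against cGAS KO they were 0.05, -0.03, 0.14, 0.16 and 0.00. Within complex I, the NADH module (11 genes), the ubiquinone module (6 genes) and the membrane arm (19 genes) had medians of 0.10, 0.21 and 0.11 in cGAS KO against WT and of 0.09, 0.15 and 0.16 in STING KO against WT. Without the 3 libraries of low complexity the complex medians in cGAS KO against WT lay between -0.10 (complex III) and 0.01 (complex I), and in STING KO against WT between 0.01 (complex II) and 0.11 (complex I).

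Several complex IV subunits have a common isoform and a second one known from muscle, heart, lung or testis. In every pair the common isoform dominated here, as a share of the pair's level per length. Cox4i2 made up 0.972% ± 0.453 of its pair with Cox4i1 in cGAS KO, 1.43% ± 1.11 in STING KO and 0.743% ± 0.193 in WT (SD, n = 3 each). Cox6a2, the muscle isoform of Cox6a1, made up 0.793% ± 0.545 in cGAS KO, 1.003% ± 0.870 in STING KO and 1.59% ± 0.671 in WT. Cox7a1, the heart and muscle isoform of Cox7a2, made up 1.74% ± 0.423 in cGAS KO, 3.63% ± 2.93 in STING KO and 1.04% ± 0.912 in WT. For Cox4i2 and Cox6a2 the groups overlapped. For Cox7a1 each STING KO share lay above each WT share, with 1.94%, 7.01% and 1.93% against 1.70%, 1.42% and 0%. The highest and the lowest of these came from libraries of low complexity, STING KO replicate 2 with 12 counts and WT replicate 3 with 0. In the other libraries the STING KO and WT shares of Cox7a1 lay close together. These shares rest on few reads: the 9 libraries together held 248 counts of Cox4i2, 326 of Cox6a2 and 80 of Cox7a1.

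The other second isoforms were as rare. Cox6b2, known from testis, made up 1.92% ± 1.57 of its pair with Cox6b1 in cGAS KO, 1.33% ± 1.17 in STING KO and 1.45% ± 1.65 in WT. Cox7b2 made up 1.12% ± 1.09 of its pair with Cox7b in cGAS KO, 1.05% ± 0.914 in STING KO and 1.05% ± 0.892 in WT, on 27 counts in all. Cox8b, the muscle isoform, made up 0.0929% ± 0.161 of its pair with Cox8a in cGAS KO, 0.141% ± 0.133 in STING KO and 0.272% ± 0.415 in WT, on 37 counts, and Cox8c had 0 counts. Ndufa4l2, a paralog of Ndufa4 (a complex IV subunit despite its name) and known to rise when oxygen is short, made up 1.30% ± 0.225 in cGAS KO, 0.549% ± 0.476 in STING KO and 0.931% ± 0.188 in WT. Its level was 1.74, 0 and 1.40 CPM in STING KO, 2.26, 1.06 and 1.90 CPM in cGAS KO and 2.30, 1.83 and 0.354 CPM in WT. The second STING KO library had 0 counts. Each STING KO share of Ndufa4l2 lay below each cGAS KO share, while the levels overlapped. The separate shares of Cox7a1 and Ndufa4l2 were picked from all isoform pairs and all comparisons, and the other shares overlapped. How often other gene pairs separate this way was not tested. Ndufa4l2 overlaps Shmt2 on the opposite strand, and Cox6a2 overlaps Itgad. Summed markers of skeletal and heart muscle (5 genes) lay between 17.9 and 27.8 CPM in all libraries, and their part in the muscle isoforms was not tested.

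**Figure D4:**
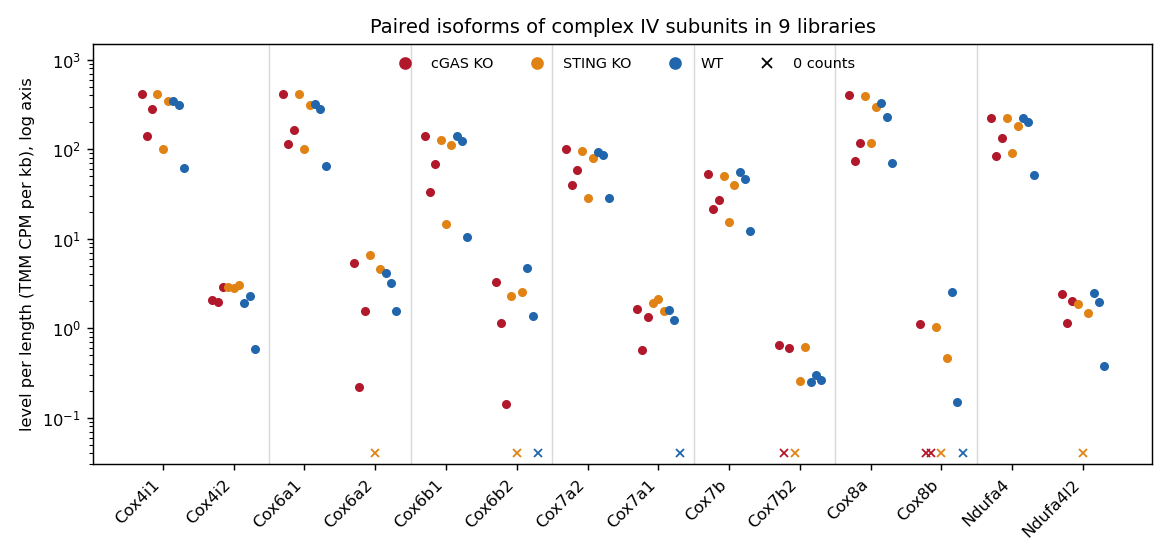
Level per length (TMM CPM per kb, log axis) of the common and the second isoform of 7 complex IV subunits in each library, with cGAS KO left of STING KO and WT; crosses mark 0 counts. The second isoform of each pair lies well below the common one in every library, as in Cox4i2 with a mean of 2.28 CPM per kb against 267 CPM per kb for Cox4i1.

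The ring of the ATP synthase is built from 1 protein, subunit c, which 3 genes encode with different import signals. These shares are of the summed counts of the 3 genes and were not divided by transcript length, unlike the isoform shares above. Atp5g3 gave the largest part of the counts, with 49.2% ± 3.53 in cGAS KO, 51.6% ± 1.42 in STING KO and 46.6% ± 3.03 in WT (SD, n = 3 each). Atp5g1 gave 29.9% ± 3.59 in cGAS KO, 28.0% ± 0.713 in STING KO and 33.6% ± 4.57 in WT. Atp5g2 gave 20.9% ± 2.70 in cGAS KO, 20.5% ± 2.09 in STING KO and 19.9% ± 1.79 in WT. The order of the 3 genes by counts was thus the same in each genotype, while their levels moved with the library. Each STING KO share of Atp5g3 lay above each WT share, with 52.9%, 50.1% and 51.6% against 47.3%, 49.1% and 43.2%. Each STING KO share of Atp5g1 lay below each WT share. The shares overlapped for Atp5g2 and in the other comparisons. Shares of one whole depend on each other, and how often other genes separate this way was not tested. Atp5g3 had 139, 54.6 and 88.1 CPM in cGAS KO, 139, 48.5 and 122 in STING KO and 118, 98.2 and 23.0 CPM in WT.

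The largest differences among the members were between libraries of the same genotype. Of the 86 tested, 75 had less in cGAS KO replicate 2 than in both other cGAS KO libraries (40.5% of all genes). In STING KO replicate 2 the number was 82 (48.9% of all genes), and in WT replicate 3 it was 85 (47.1% of all genes). WT replicate 3 was the lowest of all 9 libraries for 68 members, or 79.1%, against 24.3% of all genes tested. As a share of the mean of the other 2 libraries of the group, the summed level of complex IV was 44.7% in cGAS KO replicate 2, 32.2% in STING KO replicate 2 and 22.0% in WT replicate 3. For complex II the shares were 71.3%, 55.4% and 52.9%, and for complex V 73.5%, 53.5% and 39.9%, in the same order. Within complex V, the catalytic F1 part kept 79.9%, 59.0% and 45.2%, against 57.0%, 40.4% and 27.5% for the membrane part and stalk.

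Single genes showed the extremes. Uqcr11, the smallest subunit of complex III (chr10:80402997-80406830, minus strand), had 46.4, 4.53 and 16.2 CPM in cGAS KO, 43.8, 0.836 and 31.2 in STING KO and 32.2, 21.7 and 2.26 CPM in WT. Atp5k (chr5:108433244-108434448, minus strand) had 20.4, 4.38 and 10.3 CPM in cGAS KO, 19.0, 1.95 and 12.7 in STING KO and 21.5, 15.9 and 0.354 CPM in WT. Cox6b1, which faces the intermembrane space (chr7:30616861-30626151, minus strand), had 86.1, 20.7 and 41.9 CPM in cGAS KO, 78.7, 9.13 and 68.7 in STING KO and 87.8, 76.8 and 6.51 CPM in WT. In all 3 genes the low libraries were the ones of low complexity. Uqcrc2, in contrast, had 96.8, 86.5 and 85.7 CPM in cGAS KO, 98.1, 93.4 and 102 in STING KO and 104, 108 and 85.5 CPM in WT, and Ndufs1 had 109, 96.7 and 115 CPM in cGAS KO. These genes were set side by side after their values were seen.

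Transcript length moved with these differences. The tested members are short, with a median principal transcript of 738.5 nt, against 2865 nt for tested protein-coding genes, and 56 of 86 (65.1%) are under 1000 nt, against 6.88%. The members under 1000 nt had median log2 differences from the other 2 libraries of their group of -0.94 in cGAS KO replicate 2, -1.64 in STING KO replicate 2 and -2.20 in WT replicate 3. The 30 longer members had -0.35, -0.65 and -1.11 in the same order. The 945 other protein-coding genes under 1000 nt had -0.58, -0.95 and -1.21, and all genes tested had -0.01, -0.06 and -0.05. Over the 86 members, log2 length and the difference had Pearson's r of 0.47, 0.34 and 0.55 and Spearman's rho of 0.54, 0.36 and 0.56. Over the 14560 tested protein-coding genes, r was 0.39, 0.41 and 0.51 and rho 0.43, 0.45 and 0.53. These describe genes of the same libraries, which are not independent replicates.

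Some members departed from the length order, and they too were picked after their values were seen. Sdhaf3, the longest at 4323 nt, had log2 differences of -0.04, 0.44 and 0.20 in these 3 libraries. Ndufb2, with a principal transcript of 455 nt, had 0.24, 0.58 and -0.19, and it overlaps Braf on the opposite strand. Sdha, at 2900 nt, had 298, 190.0 and 279 CPM in cGAS KO, 295, 141 and 284 in STING KO and 272, 264 and 162 CPM in WT, so a long member was low in these libraries too. The summed ribosomal protein transcripts, also short, took 0.661%, 0.477% and 0.253% of the counts in the 3 libraries, against 0.761% to 0.994% in the other 6. Summed markers of cortical glutamatergic neurons (4 genes) were 987 CPM in WT replicate 3, against 60.5 to 569 CPM in the other 8 libraries, and all 4 were above both other WT libraries. The summed astrocyte markers (5 genes) were 7122 CPM in WT replicate 3, against 3225 to 4803 CPM in the other 8, but Slc1a2 alone gave 6733 CPM of this, and 3 of the 5 markers were below both other WT libraries. Whether RNA quality, library preparation or tissue content gave these values was not tested.

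**Figure D5:**
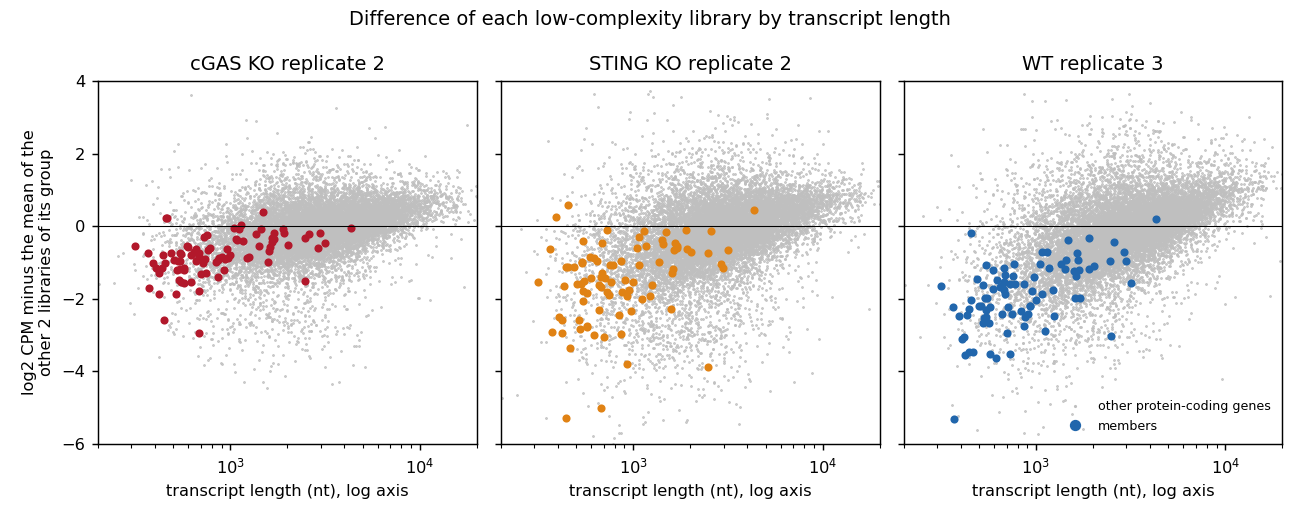
Difference of each library of low complexity from the mean of the other 2 libraries of its group (log2 CPM) against transcript length (nt, log axis), for the 86 tested members (coloured) and the other tested protein-coding genes (grey; values outside the axis are not drawn). Members lie mostly below 0 and at the short end, with medians of -0.79 in cGAS KO replicate 2, -1.41 in STING KO replicate 2 and -1.77 in WT replicate 3.

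The partners of these subunits in the same pathway were read from the same fit, and 0 genes of the 5 lists given here were called with 9 libraries. The 13 subunits encoded by mitochondrial DNA had median log2 fold changes of 0.35 in cGAS KO against WT (13 positive), -0.08 in STING KO against WT (6 positive) and -0.36 in STING KO against cGAS KO (2 positive). Their most abundant transcript, mt-Co1, the catalytic subunit of complex IV, had 18719.6, 12678 and 32507 CPM in cGAS KO, 17300.1, 17209 and 15863 in STING KO and 19656, 24679.7 and 14377 CPM in WT. Cytochrome c (Cycs) had 55.7, 37.7 and 49.5 CPM in cGAS KO, 56.1, 32.6 and 51.8 in STING KO and 65.2, 52.7 and 21.2 CPM in WT, and cytochrome c1 (Cyc1) had 103, 61.7 and 62.5 CPM in cGAS KO, 105, 37.9 and 92.7 in STING KO and 89.5, 82.6 and 42.7 CPM in WT. Both were lowest of their group in the libraries of low complexity. Next among the mitochondrial transcripts, mt-Cytb, of complex III, had 9584, 4283 and 14631 CPM in cGAS KO, 8808, 4908 and 7894 in STING KO and 10842, 13075 and 3994 CPM in WT. The 46 tested assembly factors had medians of 0.00, 0.05 and 0.07 in the same 3 comparisons, and 16 genes of pyruvate dehydrogenase and the citric acid cycle had 0.04, -0.06 and -0.05. The most abundant assembly factors were steady across libraries: Coa5, needed for complex IV, had 107, 102 and 109 CPM in cGAS KO, 106, 117 and 104 in STING KO and 109.5, 119.9 and 128 CPM in WT, and Ttc19, needed for complex III, had 94.1, 95.8 and 82.9 CPM in cGAS KO, 95.8, 92.6 and 96.3 in STING KO and 94.1, 108 and 107 CPM in WT. The list of 46 was not steady. Below both other libraries of the group were 30 in cGAS KO replicate 2 (40.5% of all genes), 30 in STING KO replicate 2 (48.9%) and 34 in WT replicate 3 (47.1%).

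Of the 9 tested regulators of these genes, 2 were below both other libraries of the group in cGAS KO replicate 2 (40.5% of all genes), 4 in STING KO replicate 2 (48.9%) and 5 in WT replicate 3 (47.1%). The list had medians of 0.03, 0.04 and 0.02 in the 3 comparisons. Ppargc1a, the coactivator that raises mitochondrial genes, had 33.6, 53.5 and 38.8 CPM in cGAS KO, 41.4, 62.5 and 39.4 in STING KO and 38.6, 45.4 and 76.2 CPM in WT, so its highest libraries were those of low complexity. Yy1 had 91.1, 128 and 111 CPM in cGAS KO, 98.3, 104 and 95.6 in STING KO and 90.6, 94.9 and 104 CPM in WT. Ogdh, of the citric acid cycle, had 306, 539 and 428 CPM in cGAS KO, 310.1, 389 and 306 in STING KO and 344, 361 and 353 CPM in WT. Most of its list of 16 genes went lower in 2 of these libraries. Below both other libraries of the group were 8 in cGAS KO replicate 2 (40.5% of all genes), 13 in STING KO replicate 2 (48.9%) and 14 in WT replicate 3 (47.1%).

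A complex I subunit gene of mitochondrial DNA, mt-Nd3, had counts that set the STING KO libraries apart. It had 5.22, 1.74 and 3.97 CPM in STING KO, against 33.5, 41.9 and 68.7 CPM in cGAS KO and 38.9, 44.3 and 14.9 CPM in WT. All 3 STING KO libraries lay below all others. Of all genes, 3.67% were lower without overlap in STING KO against WT and 3.72% against cGAS KO. The level of mt-Nd3 was low, with a mean of 28.1 CPM over the 9 libraries, against 6179 CPM for mt-Nd1 and 4913 CPM for mt-Nd4. The means of mt-Nd4l, mt-Co2, mt-Co3, mt-Atp6 and mt-Atp8 were also low, at 1.78 to 167 CPM. Whether counting left out reads of these genes was not tested, so a lower count need not mean less transcript. In the 9 libraries the log2 fold change of mt-Nd3 was -3.16 ± 0.52 in STING KO against WT, with an adjusted edgeR p of 0.794. In STING KO against cGAS KO it was -3.71 ± 0.53, with an adjusted edgeR p of 0.767 (SE, n = 3 each). The gene was chosen after its values were seen. Without the 3 libraries of low complexity its count was lower in STING KO by 3.18 on the log2 scale against WT, with an adjusted p of 0.0462 in edgeR. Against cGAS KO it was lower by 3.48, with an adjusted p of 0.0327 in edgeR. It passed under 4 of the 21 alternatives in each of these comparisons, and under 0 of the 9 that left out 1 library. The adjusted p-values over them ran from 2.94e-06 to 1.0 against WT and from 8.03e-10 to 1.0 against cGAS KO.

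Counting could blur some members. Exons of 30 members overlap a gene on the opposite strand, among them Ndufs1 with Eef1b2, Cox4i1 with Emc8, Atp5a1 with Haus1, Sdhaf2 with Cpsf7 and Uqcrc2 with Pdzd9, and no source used here gives the strand setting. The 13 genes named after members but annotated as pseudogenes or, for Ndufb1-ps, as a noncoding RNA were counted separately and held 0 to 1673 counts each over all libraries, the most in Ndufb1-ps, followed by 562 counts in Ndufab1-ps. Reads shared with these copies were not separated further.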

How the data were processed

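Polyadenylated striatum RNA of 9 libraries was sequenced. The deposited files hold whole-number counts per gene and library, and the authors aligned with HISAT2 to mm10 and counted with featureCounts, per the submitters' processing notes; no source used here gives versions, strand or multi-mapping settings. A GENCODE annotation of GRCm38 gave symbols for 54495 of 54532 gene IDs. Counts were tested with edgeR 4.0.16 (filterByExpr, TMM factors, quasi-likelihood F test, all 3 groups in 1 fit, Benjamini-Hochberg adjustment over 17821 genes, threshold 0.05). Fold changes are the log2 estimates of the edgeR fit with its default prior count. The log2 CPM differences of the libraries of low complexity use a prior count of 2. Level per length divides CPM by the shortest principal transcript. Intervals and floors cover counting error only. Promoter sequences are RefSeq, GRCm38.p6.

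Named members are the 4 of smallest unadjusted p per direction and comparison, the 2 highest and the lowest per length in each complex, isoform pairs and subunit c genes. Of the other lists, the 2 most abundant genes are named. Genes these rules name that are withheld are not reported here. Members and lists were chosen with earlier results of these data known. The fit was tested on simulated data. Alternatives were other factors, no filter, DESeq2 1.42.0, limma-voom (limma 3.58.1), robust dispersion, a replicate block, only the 6 libraries compared, leaving out each library, and leaving out the 3 of low complexity; a length trend and library quality weights were added after seeing the data.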

Additional observations from a re-analysis of the deposited data

How the results depend on the processing

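No member was called by any of the 21 alternatives in any of the 3 comparisons. The number of all genes called moved from 0 in some settings. In cGAS KO against WT it was 1 by DESeq2 without a count filter and 4 by limma-voom with library quality weights. In STING KO against WT it was 4 by edgeR without the count filter, 10 by DESeq2, 4 without the 3 libraries of low complexity and 178 with quality weights. In STING KO against cGAS KO it was 4 by edgeR without the filter, 8 by DESeq2, 3 without the 3 libraries and 29 with quality weights. The cause was not tested. Leaving out 1 library at a time gave 0 genes called, and medians of the members' log2 fold changes from -0.27 to 0.43 in cGAS KO against WT, from -0.22 to 0.45 in STING KO against WT and from -0.22 to 0.39 in STING KO against cGAS KO. The members' share of counts then ran from 0.441% to 0.621% in cGAS KO, from 0.486% to 0.693% in STING KO and from 0.419% to 0.655% in WT. With quality weights the medians were -0.25, 0.12 and 0.37 in the same 3 comparisons. That setting also put 13, 9 and 22 of the 86 members at an unadjusted limma p under 0.05, against 0 in edgeR. The smallest adjusted limma p-values of members were 0.0818, 0.130 and 0.0609. The share of all genes under 0.05 in that setting is not given here, so these counts do not set the members apart. In STING KO against cGAS KO the median also turned negative with limma-voom (-0.03) and with the length trend (-0.03). Same-numbered libraries had correlations of their deviations from -0.45 to 0.50, and not every library correlated best with its own number. The 3 libraries of low complexity, which do not all share a number, correlated with each other at 0.47 to 0.53. These correlations therefore cannot settle whether replicate numbers pair the libraries. With the replicate block the medians were 0.06, 0.11 and 0.06, with 0 genes called. The spread between replicates limits precision here: the biological coefficient of variation was 38.8% with 9 libraries and 17.2% without the 3 of low complexity.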
